A study of Rattus norvegicus with 8 samples.

Results

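The miRNAs miR-144 and miR-451 are described here across kidney libraries of AA-treated and control rats. Rows of the deposited count table were taken when the name after the rat prefix was miR-144, miR-451 or miR-486, in any letter case and with any arm suffix. The rule found 4 of the 620 listed miRNAs, which were rno-miR-451, rno-miR-451*, rno-miR-144 and rno-miR-144*, and no row for miR-486. The asterisk marks the arm of a hairpin that the naming at the time took for the lesser one.

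Small RNAs were sequenced from the kidneys of 8 male Big Blue rats, which are Fisher 344 rats that carry a transgene for mutation assays. The labels give their age as 6 weeks, which the treatment protocol places at the start of dosing. The AA group of 4 rats was gavaged with the sodium salt of aristolochic acid (AA), a plant carcinogen that damages the kidney, at 10.0 mg/kg on 5 days a week over 12 weeks. The CTL group of 4 rats was given sodium chloride solution on that schedule, and no other treatment or allele separates the groups. Libraries are named here by group and by the number in their title, from CTL1 to CTL4 and from AA1 to AA4.

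In vertebrates, miR-144 and miR-451 are cut from neighbouring hairpins of one transcript that the factor GATA1 switches on as red blood cells mature, and miR-451 is among the most abundant miRNAs of mature red cells. miR-486 comes from an intron of the ankyrin gene of red cells and muscle. miR-451 is unusual in that its hairpin is too short for Dicer and is cut by Argonaute 2 itself, so that no separate opposite arm is released by Dicer. In whole kidney, such miRNAs can come from blood in the vessels as well as from kidney cells.

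The mature sequences show which arm each row counts. They were taken from RefSeq on the rat assembly GRCr8, where all 4 rows were matched through their hairpins, and bases 2 to 8, the seed that pairs with targets, are in capitals.
rno-miR-451: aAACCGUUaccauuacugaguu
rno-miR-144*: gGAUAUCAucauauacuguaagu
rno-miR-144: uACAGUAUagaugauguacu
The 3 seeds differ from each other, and none of them is shared by another of the 724 mature rat sequences in the table. rno-miR-144 shares its bases 2 to 7 with both miR-101 sequences, while bases 2 to 7 of rno-miR-451 and rno-miR-144* are shared with no other entry. rno-miR-144 has 20 nt, against 23 nt for rno-miR-144* and 22 nt for rno-miR-451. By the labels, the gel band cut for the libraries covered fragments of 22 to 30 nt, and the part of this cut in the counts of the shorter arm was not tested.

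The hairpins are shown because their layout decides which arms can be counted. The mature miR-451 and both arms of miR-144 are in capitals.
Mir144: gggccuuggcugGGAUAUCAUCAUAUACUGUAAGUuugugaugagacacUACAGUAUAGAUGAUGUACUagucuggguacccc
Mir451a: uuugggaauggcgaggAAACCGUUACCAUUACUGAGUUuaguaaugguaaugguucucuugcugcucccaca
On GRCr8 the Mir144 hairpin of 83 nt lies at chr10:63459397-63459479 and the Mir451a hairpin of 72 nt at chr10:63459569-63459640. Both are on the plus strand with 89 bases between them, and the annotation places no other gene over them. The nearest annotated genes are Flot2 on one side and Eral1 on the other. In the structures predicted by RNAfold, the mature miR-451 ran through the whole terminal loop of 4 bases, and 17 of its 22 bases were paired. Neither arm of miR-144 reached into its terminal loop of 6 bases, and 20 bases of rno-miR-144* and 19 of rno-miR-144 were paired.

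Each library held between 13412373 and 15616670 reads on known rat miRNAs by the deposited counts. The paper states a smaller number of such reads for all samples together, and the reason for the difference was not tested. One field of the labels gives the tissue as liver, whereas the protocols and the study give the kidney. The 6 nephron miRNAs fixed as markers (miR-30a, miR-30c, miR-30d, miR-192, miR-194 and miR-204) together held 126462 to 235702 CPM in each library, whereas miR-122, the dominant miRNA of liver, held 0.696 to 523 CPM. Most of the nephron sum came from miR-30a, at 88673 to 142055 CPM, while miR-204 held 14.9 to 39.2 CPM. CPM are read counts scaled to a common library size by the TMM method, which corrects for a few abundant miRNAs that take up reads. The highest miR-122 levels were in AA2 at 523 CPM and CTL1 at 53.0 CPM, so the group results below were also computed without these libraries. Libraries of one group differed far beyond counting error, with a chi-square of at least 394 per degree of freedom, and each was counted as 1 rat.

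rno-miR-451 was the most abundant member. Its reads were 6473, 10542, 10531 and 6871 in CTL1 to CTL4 and 5623, 10068, 5336 and 2576 in AA1 to AA4. Scaled to library size, these were 485, 776, 653 and 560 CPM in the CTL rats and 435, 546, 367 and 153 CPM in the AA rats. AA4 was the lowest library by a wide margin, 3 of the 4 AA rats lay below every CTL rat, and AA2 lay inside the CTL range. As a share of all miRNA reads, rno-miR-451 took from 0.0165% in AA4 (95% Wilson interval 0.0159% to 0.0171%, for counting error only) to 0.0718% in CTL2 (0.0705% to 0.0732%). In the libraries it ranked between 54 and 107 by reads.

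The opposite arm rno-miR-451* was close to absent. It had 1 read in CTL2, 1 read in AA1 and 0 reads in the other 6 libraries, where a count of 0 allows up to 3 reads, or a share of at most 2.18e-05%. Over all libraries it made up 2 of the 58022 reads of both arms, or 0.00345% (95% Wilson interval 0.000945% to 0.0126%). No group comparison was made for it, since it did not reach 10 reads in 4 libraries.

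The hairpin of miR-144 gave reads from both arms, and the arm with the asterisk held most of them. rno-miR-144* had 4011, 4620, 5086 and 2993 reads in CTL1 to CTL4 and 3399, 4260, 2473 and 1511 in AA1 to AA4. rno-miR-144 had 175, 302, 334 and 173 reads in the CTL libraries and 173, 331, 190 and 91 in the AA libraries. The asterisk arm thus took between 92.8% of the hairpin's reads in AA2 (95% Wilson interval 92.0% to 93.5%) and 95.8% in CTL1 (95.2% to 96.4%). Summed over the libraries, it had 16.03 reads for each read of the other arm. Of the 92 hairpins with both a named arm and its asterisk arm among the tested miRNAs, 11 had more reads on the asterisk arm, and miR-144 had the third-highest ratio. rno-miR-144 had the fewest reads of the 3 tested members and so the largest counting error, which was 10.5% at the 91 reads of AA4.

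On the CPM scale, rno-miR-144* was at 301, 340, 315 and 244 CPM in CTL1 to CTL4 and at 263, 231, 170 and 89.5 CPM in AA1 to AA4. rno-miR-144 was at 13.1, 22.2, 20.7 and 14.1 CPM in the CTL rats and at 13.4, 18.0, 13.1 and 5.39 CPM in the AA rats. For both arms AA4 was again the lowest library and CTL2 the highest, and the groups overlapped. The levels of all members by rat are drawn in the plot of CPM by library.

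**Figure D1:**
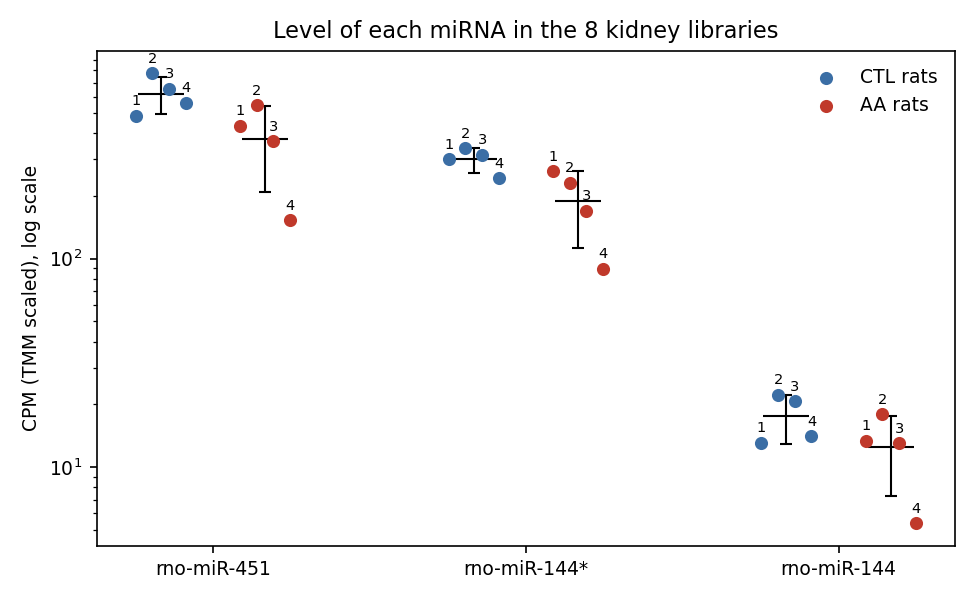
CPM (TMM scaled, log axis) of rno-miR-451, rno-miR-144* and rno-miR-144 in each of the 4 CTL (blue) and 4 AA (red) libraries, numbered by title; the black bars give the group mean and SD. In all 3 miRNAs AA4 lies lowest, at 153, 89.5 and 5.39 CPM, and at least 1 AA rat lies within the CTL range.

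The comparison of AA with CTL asks whether these red cell miRNAs moved with the treatment. The mean of rno-miR-451 was 618 ± 125 CPM in the CTL group and 375 ± 166 CPM in the AA group (SD, n = 4 each). Its log2 fold change was -0.72 (standard error 0.33, 95% interval -1.46 to 0.02), with an adjusted p of 0.176 from edgeR's quasi-likelihood test over all miRNAs. For rno-miR-144*, the means were 300 ± 40.8 and 188 ± 76.3 CPM (SD, n = 4 each). The log2 fold change was -0.67 (standard error 0.30, 95% interval -1.33 to -0.01) with an adjusted p of 0.159 from the same test. For rno-miR-144, the means were 17.5 ± 4.60 and 12.4 ± 5.21 CPM (SD, n = 4 each). The log2 fold change was -0.49 (standard error 0.34, 95% interval -1.26 to 0.27) with an adjusted p of 0.344. The AA means were thus 60.7%, 62.8% and 71.0% of the CTL means, and none of the 3 differences passed the threshold of 0.05.

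Of the 367 miRNAs tested, 16.3% were called between the groups, 10.4% as higher and 5.99% as lower in AA, against 0 of the 3 tested members. Without adjustment, 30% of all miRNAs and 1 member, rno-miR-144*, had a p under 0.05. The groups did not overlap in 24.3% of all miRNAs and in 0 of the 3 members. In a whole kidney, the number of red cells, the miRNA per red cell and any part from kidney cells cannot be told apart. Perfusion of the kidneys is not given in the sources used here.

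The size of the difference depended on single libraries, although every fit gave a log2 fold change below 0 for each of the 3 members. Without AA4 the log2 fold change of rno-miR-451 was -0.57 (adjusted p = 0.146 from edgeR). Without CTL1 and AA2, the libraries high in miR-122, it was -1.17 (adjusted p = 0.0863 from edgeR), and that of rno-miR-144 was -0.95 (adjusted p = 0.162). Over all other settings the adjusted p of rno-miR-451 lay between 0.0577 and 0.345, and that of rno-miR-144 between 0.130 and 0.594. That of rno-miR-144* lay between 0.0387 and 0.309 and passed the threshold in 1 of 16 settings.

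With all 8 libraries kept, the members differed more between rats than most miRNAs did. After the group means were taken off, the SD of log2 CPM was 0.60 for rno-miR-451, 0.51 for rno-miR-144* and 0.59 for rno-miR-144, while the median over all 367 tested miRNAs was 0.36. By this SD, they ranked 61, 102 and 66 of 367, counted from the most variable. Of the 40 miRNAs whose mean level was within a factor of 2 of rno-miR-451, only 1 had a larger SD, and the median SD of these 40 was 0.29. For rno-miR-144* a larger SD was found in 6 of 41 such miRNAs (median 0.28), and for rno-miR-144 in 14 of 74 (median 0.34). Counting error was a small part of the spread, at 0.02 on the log2 scale for rno-miR-451, 0.03 for rno-miR-144* and 0.11 for rno-miR-144. From the lowest to the highest library, rno-miR-451 spanned 5.08-fold, rno-miR-144 4.12-fold and rno-miR-144* 3.80-fold. AA4 was the lowest library for each of them. Within the CTL rats these spans were 1.60-fold, 1.69-fold and 1.39-fold, against 3.58-fold, 3.33-fold and 2.94-fold within the AA rats. Whether the members would still vary more than most miRNAs without AA4 was not tested.

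The levels of rno-miR-144 and rno-miR-451 varied together between rats. Across the 8 libraries, log2 CPM of rno-miR-144 and rno-miR-451 had a Pearson r of 0.973 (exact permutation test of the pairings, two-sided, p = 0.000273, adjusted p = 0.00164 over 6 relations) and a Spearman rho of 0.952 (exact permutation p = 0.00114, adjusted p = 0.00685). The relation was also seen within each group, with an r of 0.950 over the 4 CTL rats and 0.994 over the 4 AA rats. With the group means taken off, r was 0.979 (exact permutation within the groups, two-sided, p = 0.00174, which is the smallest p it allows, adjusted p = 0.00437) and rho was 0.881 (exact permutation p = 0.00347).

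AA4 and CTL2 are the libraries farthest from the median of rno-miR-144. Without both, r was 0.794 over the other 6 libraries, with an exact permutation p of 0.0569 that misses the threshold, and 0.891 with the group means taken off (exact permutation p = 0.0278). Without AA4 alone r was 0.880 (exact permutation p = 0.00456), so that the relation was carried in part, and not entirely, by the rat with the lowest levels.

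The relations of the more abundant arm were computed in the same way, and whether r differed between the relations was not tested. Between rno-miR-144* and rno-miR-451, r was 0.950 (exact permutation test, two-sided, p = 0.00218, adjusted p = 0.00437) and rho was 0.810 (exact permutation p = 0.0218). Between the arms of the miR-144 hairpin, r was 0.899 (exact permutation p = 0.00823, adjusted p = 0.0124) and rho was 0.762 (exact permutation p = 0.0368). With the group means taken off, r was 0.917 (exact permutation within the groups, p = 0.0278) and 0.877 (p = 0.0365, likewise exact) for these relations. Within the CTL rats alone r was 0.588 and 0.718, and within the AA rats alone 0.954 and 0.919. Without AA3 and AA4, the libraries farthest from the median of rno-miR-144*, r over the other 6 was 0.583 (exact permutation p = 0.235) and 0.493 (p = 0.283, likewise exact), so that these relations rest on them. With the group means also taken off, these values were 0.356 (exact permutation within the groups, p = 0.583) and 0.472 (p = 0.5, likewise exact). Without AA3 alone, and with the group means kept, r was 0.953 and 0.918. Without AA4 alone it was 0.788 (exact permutation p = 0.0353) with rno-miR-451 and 0.582 (exact permutation p = 0.164) between the arms, of which the latter misses the threshold. Over the 92 hairpins with both arms tested, the median r between the arms was 0.51, and miR-144 ranked 11.

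**Figure D2:**
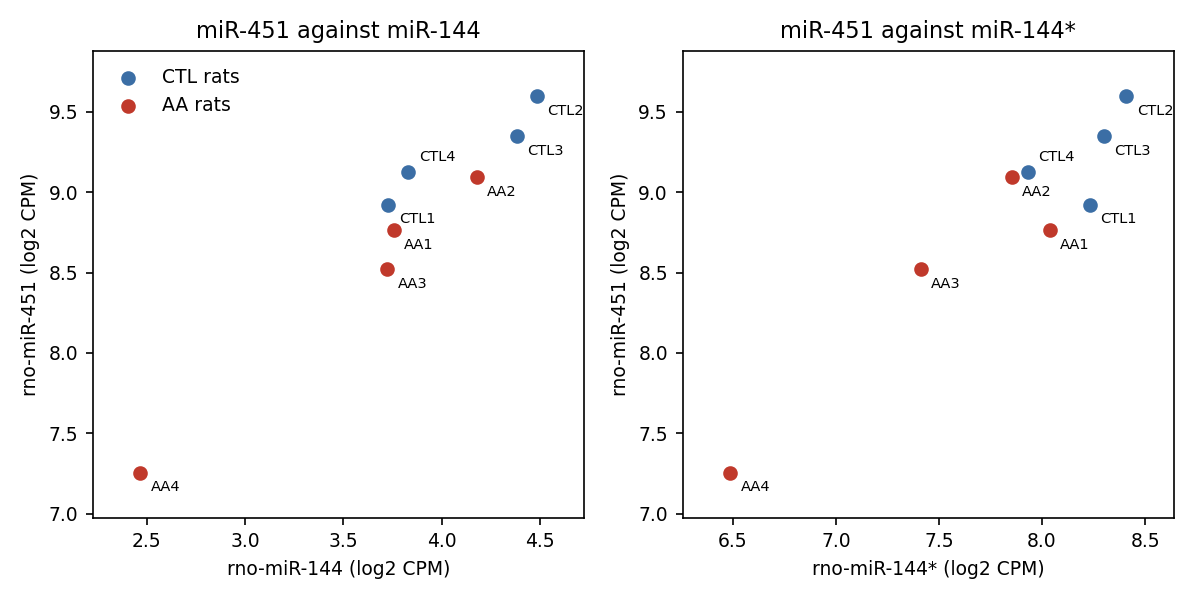
log2 CPM of rno-miR-451 (vertical axis) against rno-miR-144 (left) and rno-miR-144* (right) in the 8 libraries, CTL in blue and AA in red. The points rise together, with r of 0.973 and 0.950, and AA4 stands apart at the low end of both panels.

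Read ratios within a library need no scaling between libraries. rno-miR-451 had 37.0, 34.9, 31.5 and 39.7 reads for each read of rno-miR-144 in CTL1 to CTL4, and 32.5, 30.4, 28.1 and 28.3 in AA1 to AA4. The ratio spanned 1.41-fold over the 8 rats, while the level of rno-miR-451 itself spanned 5.08-fold. Its mean was 35.8 ± 3.45 in the CTL group and 29.8 ± 2.07 in the AA group (SD, n = 4 each), and 3 of the 4 AA rats lay below every CTL rat. On the log2 scale the difference was -0.26 (exact permutation test, two-sided, p = 0.0571, adjusted p = 0.171 over 3 ratios), where 4 against 4 rats cannot give a p below 0.0286. Without CTL3, the only CTL rat that lay below an AA rat, it was -0.32 (exact permutation p = 0.0286, not adjusted). The groups then no longer overlap, and this p is the smallest that the remaining rats allow. The counting error of this ratio in a library was 0.08 to 0.15 on the log2 scale, against an SD of 0.12 between rats within the groups.

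The ratio of rno-miR-451 to rno-miR-144* was 1.61, 2.28, 2.07 and 2.30 in CTL1 to CTL4 and 1.65, 2.36, 2.16 and 1.70 in AA1 to AA4, with overlapping groups. Its log2 difference between AA and CTL was -0.07 (exact permutation test, two-sided, p = 0.771). The ratio of rno-miR-144* to rno-miR-144 was 22.9, 15.3, 15.2 and 17.3 in the CTL libraries and 19.6, 12.9, 13.02 and 16.6 in the AA libraries. Its log2 difference was -0.19 (exact permutation test, two-sided, p = 0.371), and the groups overlapped here as well. Between rats of a group, the SD of these log2 ratios was 0.25 and 0.29, well above their counting error of 0.02 to 0.05 for the former and 0.08 to 0.16 for the latter.

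**Figure D3:**
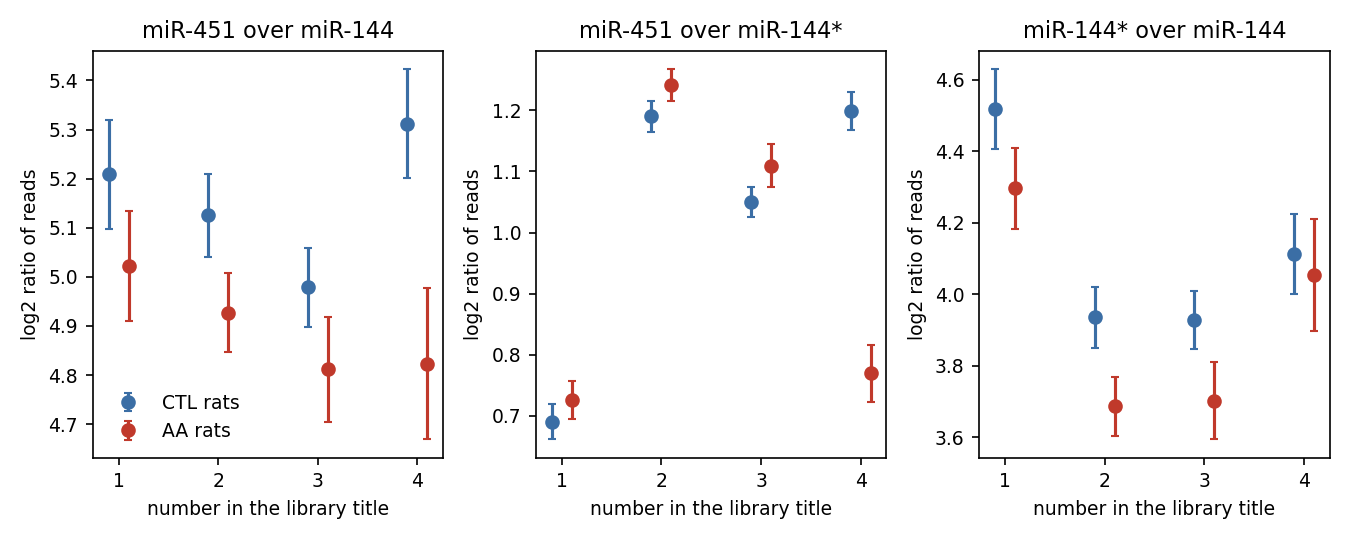
log2 ratio of reads between the members within each library, with the number in the library title on the horizontal axis, CTL in blue and AA in red; bars give the counting error as 1 standard error. The ratio of miR-451 to miR-144 lies lower in AA than in the CTL library of the same number in each of the 4 numbers, and the ratio of miR-451 to miR-144* is nearly equal in the libraries numbered 1 to 3. No label pairs the rats by this number.

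Likeness of pattern was ranked by Pearson r with rno-miR-451 over the 8 libraries, as a description without a test. Of the 366 other tested miRNAs, rno-miR-144 ranked 1 and rno-miR-144* ranked 3, while the median r was -0.10. Ranked by r with rno-miR-144* instead, rno-miR-451 was at 7 and rno-miR-144 at 14. The 5 others most like rno-miR-451 were rno-miR-381 (r = 0.970), rno-miR-411* (r = 0.945), rno-miR-411 (r = 0.930), rno-miR-126* (r = 0.928) and rno-miR-541 (r = 0.918). miR-381, miR-411 and miR-541 belong to the imprinted Dlk1-Dio3 region, on chromosome 6 in the RefSeq table, and miR-126 is a miRNA of endothelial cells. The other arm of that hairpin, rno-miR-126, did not share the pattern, with an r of -0.30 to rno-miR-451, or -0.66 with the group means taken off. With the group means taken off, rno-miR-144 again ranked 1 (r = 0.979), and the 5 most alike others were rno-mir-129-2* (r = 0.960, at less than 1 CPM), rno-miR-381 (r = 0.950), rno-miR-7a-1* (r = 0.927), rno-miR-382* (r = 0.922) and rno-miR-142-5p (r = 0.912).

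These values share the library AA4. All 3 tested members and the first 5 miRNAs named had their lowest level in AA4, at -1.83 to -1.29 relative to their mean on the log2 scale. Without AA4, rno-miR-144 still ranked 1 (r = 0.880), while r of the 5 others ranged from 0.551 to 0.851. rno-miR-144* then ranked 6 (r = 0.788). With the group means also taken off, rno-miR-144 ranked 1 without AA4 (r = 0.929) and rno-miR-144* ranked 27 (r = 0.589). For the 5 others of that list, r without AA4 ranged from 0.523 to 0.776.

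**Figure D4:**
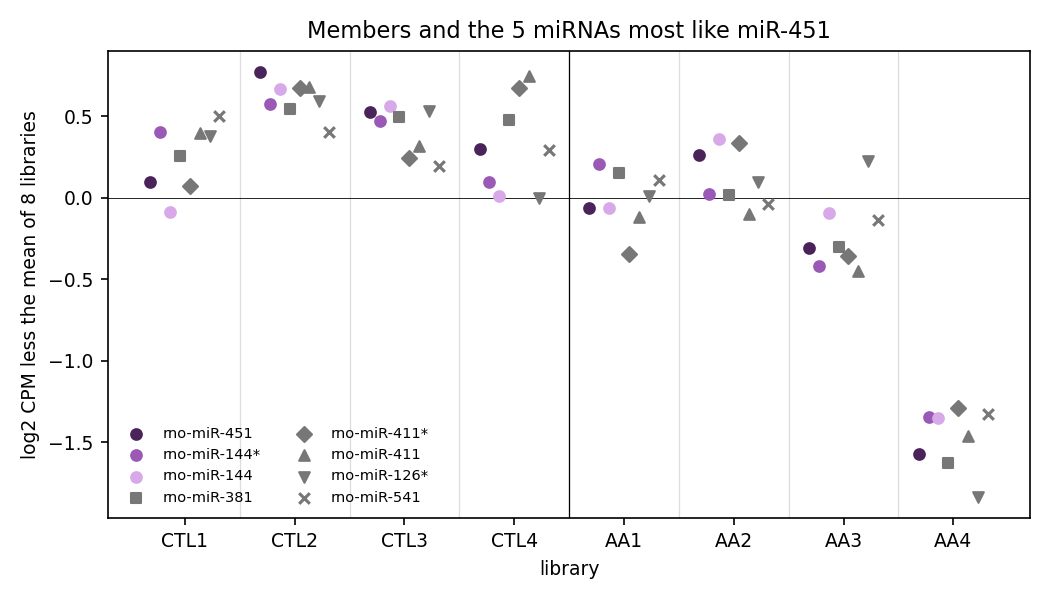
log2 CPM less the mean of the 8 libraries for the 3 tested members (purple circles) and the 5 miRNAs most like rno-miR-451 (grey symbols), by library. In AA4 all 8 miRNAs lie between -1.83 and -1.29, their lowest level.

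Other miRNAs with a part in red cell formation were taken from a list of 12, of which miR-15a and miR-155 are not rows of the table used here. Of the 10 tested, 3 were called higher in AA and 0 lower, with a median log2 fold change of 0.23 beside 0.06 over all tested miRNAs, of which 10.4% were called higher and 5.99% lower. miR-221 and miR-222, which repress the Kit receptor of red cell progenitors, rose from 55.2 ± 12.3 to 101 ± 15.0 CPM and from 21.0 ± 3.55 to 36.7 ± 4.33 CPM (SD, n = 4 each; adjusted p = 0.0214 and 0.0195 from edgeR). miR-223, which is known mainly from myeloid cells and also represses the red cell factor LMO2, rose from 40.0 ± 2.69 to 80.8 ± 25.5 CPM (SD, n = 4 each; adjusted p = 0.0195 from edgeR). For these 3, no AA rat overlapped with a CTL rat, as in 24.3% of all tested miRNAs. Among the uncalled members of the list, the groups also did not overlap for miR-150, higher in AA, and for miR-191, lower in AA.

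The other 7 of the list did not pass the test. miR-191, which is described as falling when red cells lose their nucleus, was at 8291 ± 432 CPM in CTL and 5334 ± 1394 CPM in AA (SD, n = 4 each). Its log2 fold change was -0.64 (adjusted p = 0.0539 from edgeR), and its r with rno-miR-451 over the 8 libraries was 0.91. miR-150, a miRNA of lymphocytes that also steers progenitors away from the red cell fate, had a log2 fold change of 0.58 (adjusted p = 0.0617). miR-16, which is abundant in red cells and in most other cells, was at 2527 ± 247 and 2790 ± 223 CPM (SD, n = 4 each; log2 fold change 0.14, adjusted p = 0.493). miR-23a, miR-27a and miR-24, which share clusters, had log2 fold changes of 0.30, 0.17 and 0.00, and the hypoxia-induced miR-210 had -0.21.

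**Figure D5:**
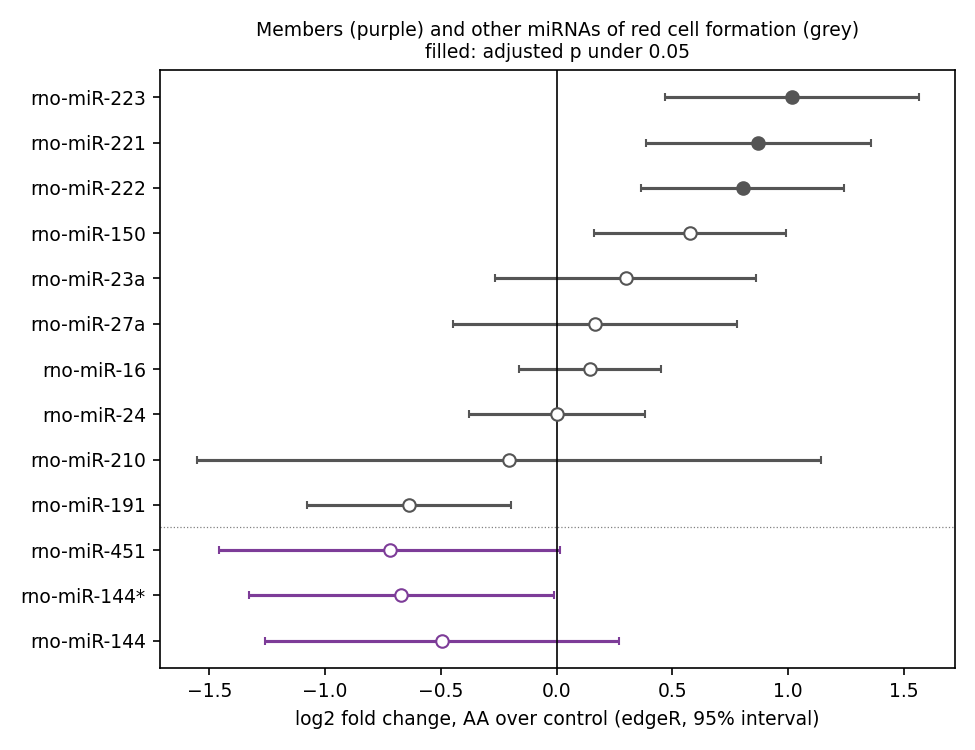
log2 fold change of AA over CTL with its 95% interval from edgeR, for the 3 tested members (purple, below) and the 10 tested miRNAs of red cell formation (grey); filled points have an adjusted p under 0.05. The members lie at -0.72, -0.67 and -0.49 and are not filled, whereas miR-223, miR-221 and miR-222 lie at 1.02, 0.87 and 0.80 and are filled.

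White blood cells are the other part of blood that a kidney sample can hold. Of the 6 leukocyte miRNAs listed, 5 were tested, and 2 of them, miR-142-3p (log2 fold change 1.47, adjusted p = 0.00182 from edgeR) and miR-223, were called higher in AA, beside 10.4% of all tested miRNAs. All 5 had reads in every library, and its summed level was 2127 to 3045 CPM in CTL and 3401 to 5602 CPM in AA. As a description over the 8 libraries, r with rno-miR-451 was -0.77 for miR-142-3p, -0.74 for miR-223, -0.81 for miR-150 and -0.20 for miR-146a, whereas it was 0.59 for miR-142-5p. The names miR-142-3p and miR-142-5p are arms of 1 hairpin, and they parted in AA4. There miR-142-3p was at its highest (3875 CPM) and miR-142-5p at its lowest (29.3 CPM). For endothelial cells, the sum of miR-126 and miR-126* was 8118 to 10934 CPM in CTL and 6178 to 9455 CPM in AA, and neither was called. The part of these cell types in the levels of miR-144 and miR-451 was not tested.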

How the data were processed

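Small RNA libraries of 8 rat kidneys (4 CTL, 4 AA) were read on the Genome Analyzer II of Illumina. The authors removed ambiguous reads and reads that were too short, mapped the others with Bowtie inside miRanalyzer to the rat miRNAs of miRBase, and deposited raw read counts per miRNA. Software versions are not given in the sources used here. The submitters' processing notes also name DESeq. Groups and numbers were taken from the sample titles, which are the column names.

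Counts were fitted by the quasi-likelihood functions glmQLFit and glmQLFTest of edgeR 4.0.16 (R 4.3.3) after TMM scaling, at library sizes of 13412373 to 15616670 reads. The fit held the 367 miRNAs that reached 10 reads in 4 or more libraries, with Benjamini-Hochberg adjustment and a threshold of 0.05. The standard error is the log2 fold change divided by the square root of F. When tested on simulated data for these 367 miRNAs, with 200 changed by a log2 fold change of 2, the step recovered 94% with 1 false call, and made 1 call where nothing was changed. Recovery of changes as small as those of the members was not tested. Correlations used log2 CPM with a prior count of 2. Exact tests and Wilson intervals were computed with scipy 1.17.1, and hairpins were folded with RNAfold 2.7.2 on RefSeq sequences of GRCr8. Wilson intervals cover counting error only, and they treat PCR copies as independent molecules, which they are not. The intervals of the log2 fold changes come from the edgeR fit, which also holds the variation between rats.

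The members, the marker lists and the rule for naming were chosen with earlier results of these data known. Named were all members, the red cell formation list, marker miRNAs beside a result, and the 5 tested miRNAs with the highest r to rno-miR-451, raw and with group means removed. Alternatives were scaling by DESeq2 size factors or by total counts, the Wald test of DESeq2 1.42.0, a fit without a filter or with 10 reads required in all libraries, a block for the title number, and leaving out each library in turn. Leaving out both libraries numbered 4, or CTL1 and AA2, and all alternatives for the correlations and ratios with rno-miR-144* were added after seeing the data. Table columns of no sample numbered 0.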

Additional observations from a re-analysis of the deposited data

Results flagged for a closer look

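A value far from the other 3 of its group was looked for in 56 groups of 4 libraries, over the members, their ratios and the marker lists. It was found 5 times, where chance gives about 2.8, and never among the members or their ratios. miR-122 was at 53.0 CPM in CTL1, against 4.05 to 5.89 in the other CTL libraries, and at 523 CPM in AA2, against 0.696 to 2.96 in the other AA libraries. miR-210 was at 112 CPM in CTL4, against 20.8 to 29.1. miR-27a was at 1547 CPM in CTL4, against 794 to 913, and at 1740 CPM in AA4, against 881 to 1017.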

How the results depend on the processing

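The log2 fold changes of rno-miR-451 and rno-miR-144 stayed below 0 and uncalled in all 16 other fits, at -1.17 to -0.51 and at -0.95 to -0.29. rno-miR-144* was called in 1 of 16, the fit with the title number as a replicate block, at -0.77 (adjusted p = 0.0387 from edgeR), while its adjusted p over all fits ran up to 0.309. The numbers do not pair the rats by any label. Deviations of same-numbered libraries correlated at 0.05, 0.20, 0.14 and 0.35 across miRNAs, 6 of 8 libraries correlated best with their own number, and the block gave 78 calls.

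In place of 60 calls, other scalings, tests and filters gave 52 to 76. Leaving out 1 library gave 35 to 51, the fewest without CTL2 (35) and CTL1 (37), and leaving out CTL1 and AA2 gave 30. Each such fit has fewer libraries. Total counts moved the median log2 fold change from 0.06 to 0.27 and the calls to 54 higher and 14 lower. On that scale rno-miR-451 was at -0.51 (adjusted p = 0.345 from edgeR).

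The r of rno-miR-144 with rno-miR-451 passed the exact permutation test in all 12 alternatives, at 0.880 to 0.985, and at 0.929 to 0.989 with group means removed. Leaving out CTL2 and AA4 together is not among these 12. It gave an r of 0.794, which missed the threshold (exact permutation p = 0.0569). Between rno-miR-144* and rno-miR-144, r was 0.582 to 0.947 with 1 library left out and 0.573 without both libraries numbered 4. With group means removed it was 0.499 to 0.944 and 0.344. Between rno-miR-144* and rno-miR-451, r with group means removed was 0.589 to 0.952 and 0.581. With group means removed, both relations missed the threshold without CTL2, AA3 or AA4, and that between the arms also without CTL4. In these 3 relations the lowest leave-one-out value came without AA4, and the cause was not tested.

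The log2 ratio of rno-miR-451 to rno-miR-144 differed by -0.32 to -0.21 between AA and CTL with 1 library left out. It passed the exact permutation test, without adjustment, only when CTL3 was left out, after which the groups no longer overlap. With the title number as a replicate block, the exact permutation p of this ratio was 0.125. The log2 ratio of rno-miR-451 to rno-miR-144* differed by -0.18 to 0.0076, above 0 only without AA1, and by 0.0486 without both libraries numbered 4. That of rno-miR-144* to rno-miR-144 differed by 0.0251 without CTL1 and AA2. Neither was called in any setting.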

Other observations

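The read ratios between the members followed the number in the library title, although the labels give the number no meaning beyond a name. The log2 ratio of rno-miR-451 to rno-miR-144* was 0.69 in CTL1 and 0.73 in AA1, 1.19 in CTL2 and 1.24 in AA2, and 1.05 in CTL3 and 1.11 in AA3. In the libraries numbered 4 it was 1.20 in CTL4 and 0.77 in AA4. Likewise, the log2 ratio of rno-miR-144* to rno-miR-144 was highest in the libraries numbered 1, at 4.52 in CTL1 and 4.30 in AA1. In AA it was lower than in CTL by 0.22, 0.25, 0.23 and 0.06 for the numbers 1 to 4. Whether same-numbered rats shared a library preparation or a sequencing run was not tested.

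The seed of rno-miR-144 is close to that of the abundant miR-101 miRNAs, which share its bases 2 to 7. miR-101a was at 19955 ± 3040 CPM in CTL and 16086 ± 4502 CPM in AA (SD, n = 4 each), and miR-101b at 14050 ± 1879 and 11515 ± 2620 CPM (SD, n = 4 each). Their adjusted p from edgeR was 0.367 and 0.340, so that neither passed the threshold, and both lie far above rno-miR-144 at 17.5 and 12.4 CPM.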
